A study of Homo sapiens with 6 samples.

Results

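A set of 9 genes of TGF-beta and activin signalling were followed in A375 cells that had been edited with CRISPR-Cas9. They were chosen by symbol as 3 TGF-beta ligand genes (TGFB1, TGFB2 and TGFB3), 2 activin subunit genes (INHBA and INHBB), 2 inhibitors (FST and SMAD7) and 2 matrix genes tied to the pathway (THBS1 and TGFBI). All 9 were among the 16934 genes with a count. A375 is an established human melanoma line with an activating BRAF mutation, and the cells of both groups had been edited with the Alt-R system. One group of 3 libraries came from cells given an sgRNA against POLK, the gene for the error-prone DNA polymerase kappa, and the other group of 3 from cells given a non-targeting control sgRNA. The comparison asks which transcripts differ when POLK has been targeted.

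TGF-beta and activin are secreted dimers that bind paired type I and type II receptor kinases, which phosphorylate SMAD2 and SMAD3. These join SMAD4, enter the nucleus and switch genes on or off, and among the genes switched on are inhibitors that limit the signal. TGF-beta is secreted in a latent complex that has to be opened outside the cell, whereas activin is held back by the binding protein follistatin. In melanoma, both ligands are known as products of the tumour cells themselves and have been linked to matrix production and invasion.

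Library totals ran from 46559658 to 56891905 counts with the POLK sgRNA and from 42852645 to 55003324 with the control sgRNA. The labels do not say whether the 3 libraries within each group were grown or edited separately, and the p-values below set a difference only against the spread among libraries, which can be technical. POLK stood at 18.2 ± 1.003 counts per 1000000 (CPM) with the POLK sgRNA and 23.3 ± 0.84 CPM with the control sgRNA (SD, n = 3 each) (adjusted p = 7.9e-08 in the test described next). The melanocyte lineage factor SOX10 was abundant in both groups (1155 ± 28.99 and 1060.1 ± 12.5 CPM), while the pigment genes PMEL and MLANA were under 1 CPM on average in both. Of 9 melanocyte lineage markers tested, 6 were higher and 1 lower, with S100A1 at 58.3 ± 1.61 CPM with the POLK sgRNA and 19.2 ± 2.49 CPM with the control sgRNA and the pigment gene TYRP1 at 0.0321 ± 0.0307 and 0.503 ± 0.0754 CPM. Control sgRNA library 1 stood apart for the pigment genes DCT, with 64 counts against 2 and 1 in the other control sgRNA libraries, and TYR, with 19 counts against 0 and 0. The summed level of 7 fibroblast markers was 24.5 to 26.3 CPM with the POLK sgRNA and 15.7 to 17.2 CPM with the control sgRNA, with 3 of 5 tested higher and 2 lower. The proteoglycan gene LUM stood at 4.50 ± 0.279 CPM with the POLK sgRNA and 0.423 ± 0.0461 CPM with the control sgRNA, and PDGFRB at 16.7 ± 0.657 and 10.6 ± 1.07 CPM. PDGFRA and COL1A2 were lower, at 2.66 ± 0.223 and 0.333 ± 0.162 CPM with the POLK sgRNA, against 4.57 ± 0.101 and 0.717 ± 0.329 CPM with the control sgRNA. COL3A1 and FAP had too few counts to be tested, with COL3A1 at 0.0654 ± 0.0227 and 0.0589 ± 0.0514 CPM. The summed level of 6 leukocyte markers was 58.1 to 60.3 CPM with the POLK sgRNA and 17.68 to 17.996 CPM with the control sgRNA, almost all of it CD68 and LYZ, while the defining leukocyte gene PTPRC was near 0 (0.0311 ± 0.0276 and 0.0269 ± 0.00849 CPM). Sums of 6 epithelial and 5 endothelial markers were also higher, at 156 to 162 and 5.78 to 6.20 CPM with the POLK sgRNA, against 105 to 107 and 3.35 to 4.32 CPM with the control sgRNA. Of 5 epithelial markers tested 3 were higher and 0 lower, of 5 endothelial markers 3 and 2, and of 3 leukocyte markers 2 and 1. Across all genes tested, 32.8% were higher and 31.6% lower. Only genes with a count have a row, so no marker with a row could be at 0 in every library. Of the 7 leukocyte markers listed, 1 had no row. The part of these markers in the results was not tested. In bulk RNA, fewer cells that express a gene and less of its RNA per cell cannot be told apart.

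Of the 9 genes, 8 had enough counts to be tested, and all 8 differed between the groups in the quasi-likelihood test of edgeR, with Benjamini-Hochberg adjusted p-values under 0.05. INHBA, THBS1, SMAD7 and TGFB1 were lower with the POLK sgRNA, and TGFBI, TGFB2, FST and TGFB3 were higher. Across all genes tested 64.3% passed, 32.8% as higher and 31.6% as lower. All 8 had groups that did not overlap in CPM, as did 67.7% of all genes tested. A stricter test, edgeR's glmTreat, asks whether a change exceeds 0.32 on the log2 scale. It was passed by 5 of the 8, with INHBA, THBS1 and SMAD7 lower and TGFBI and FST higher. Across all genes tested 20.7% passed it, 11.9% as higher and 8.79% as lower.

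**Figure D1:**
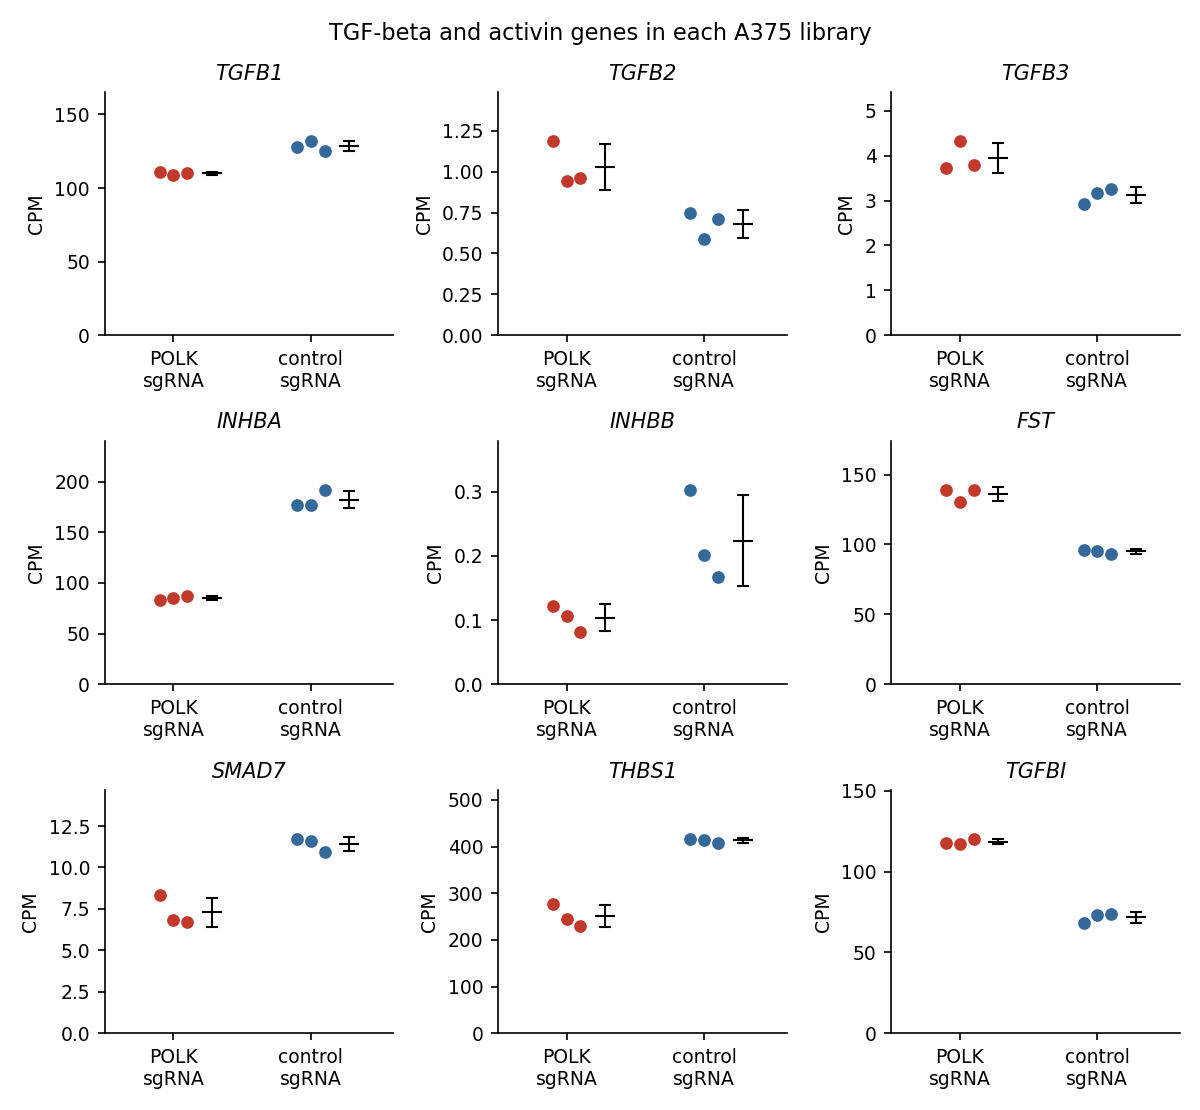
Level of each gene in CPM (vertical axes, linear, from 0) in the 3 POLK sgRNA libraries (red) and the 3 control sgRNA libraries (blue); black marks give the mean and SD. INHBA had 83.3 to 86.6 CPM with the POLK sgRNA and 177 to 192 CPM with the control sgRNA, and the points of the 2 groups do not overlap in any panel.

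The promoter windows of INHBA, THBS1, TGFBI and FST are shown because these genes passed the minimum-change test and have 1 annotated start each in the table used. Each window holds 250 bases before and 50 after the start (RefSeq, GRCh38.p14), read 5′ to 3′ on the gene's strand, and INHBA and THBS1 were lower and TGFBI and FST higher with the POLK sgRNA. Capitals mark matches on either strand, none of which overlap. The CAGA element, which SMAD3 and SMAD4 bind, was searched as CAGACA. The AP-1 element was searched as TGANTCA, a loose form with any base in the middle. The TATA box was searched as TATAAA and the GC box as GGGCGG.
INHBA, chr7:41703041-41703340, minus strand: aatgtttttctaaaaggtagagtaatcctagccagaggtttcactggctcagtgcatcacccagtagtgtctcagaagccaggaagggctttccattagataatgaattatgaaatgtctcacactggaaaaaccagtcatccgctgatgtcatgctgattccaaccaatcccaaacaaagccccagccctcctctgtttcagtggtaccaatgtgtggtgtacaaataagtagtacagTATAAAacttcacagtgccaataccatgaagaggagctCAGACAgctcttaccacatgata
THBS1, chr15:39580829-39581128, plus strand: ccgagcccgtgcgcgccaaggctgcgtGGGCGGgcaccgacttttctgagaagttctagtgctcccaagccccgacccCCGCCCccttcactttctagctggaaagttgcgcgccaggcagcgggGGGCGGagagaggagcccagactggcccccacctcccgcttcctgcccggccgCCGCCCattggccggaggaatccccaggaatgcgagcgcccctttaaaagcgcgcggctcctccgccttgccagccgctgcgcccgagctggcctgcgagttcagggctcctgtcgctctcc
TGFBI, chr5:136028738-136029037, plus strand: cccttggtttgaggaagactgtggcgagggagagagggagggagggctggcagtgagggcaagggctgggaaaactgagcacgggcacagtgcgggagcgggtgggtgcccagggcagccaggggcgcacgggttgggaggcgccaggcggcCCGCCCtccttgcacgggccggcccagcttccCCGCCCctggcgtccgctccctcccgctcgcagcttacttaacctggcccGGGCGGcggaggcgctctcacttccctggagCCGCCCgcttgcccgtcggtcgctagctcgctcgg
FST, chr5:53480379-53480678, plus strand: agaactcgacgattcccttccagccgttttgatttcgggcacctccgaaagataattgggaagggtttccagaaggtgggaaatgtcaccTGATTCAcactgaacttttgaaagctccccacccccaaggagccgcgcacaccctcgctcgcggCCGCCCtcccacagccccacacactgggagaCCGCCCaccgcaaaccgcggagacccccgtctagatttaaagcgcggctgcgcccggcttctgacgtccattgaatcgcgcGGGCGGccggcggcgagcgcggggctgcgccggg
The INHBA window held 1 match to TATAAA, beginning at −11 from the annotated start, 1 match to CAGACA, beginning at 27, and no GC box. This window ends at 41703340, inside the INHBA span given below, which runs to 41705834 on this minus-strand gene. THBS1 and TGFBI held 4 GC boxes each, and FST held 3 and a match to TGANTCA that reads TGATTCA. The CAGA element was found in 16.9% of 35116 windows of this length, the loose form TGANTCA in 7.71%, the TATA box in 11.5% and the GC box in 44.95%. The palindromic SMAD element GTCTAGAC, found in 0.202% of windows, was in none of the windows of the 9 genes. A match describes these letters only.

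Of the 4 tested ligand genes among the 9, the activin subunit gene INHBA changed most. INHBA encodes the beta A chain, a pair of which forms activin A, and lies on chromosome 7 (41667168 to 41705834, minus strand, GRCh38). It had 83.3, 85.3 and 86.6 CPM in POLK sgRNA libraries 1, 2 and 3, against 177, 177 and 192 CPM in control sgRNA libraries 1, 2 and 3. The POLK sgRNA libraries lay close together and all were below every control sgRNA library. INHBA was therefore at 46.7% of its control level, with a log2 fold change of −1.10 (SE 0.03; edgeR adjusted p = 2.7e-23). The size of this change exceeded that of 94.1% of all genes tested.

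INHBB, the gene for the beta B chain (chromosome 2, 120346143 to 120351808, plus strand), was near the limit of detection. It had 7, 5 and 4 counts in the POLK sgRNA libraries, against 13, 11 and 8 counts in the control sgRNA libraries. Scaled to depth this was 0.104 ± 0.0206 CPM with the POLK sgRNA and 0.224 ± 0.0711 CPM with the control sgRNA (SD, n = 3 each). The libraries of the 2 groups did not overlap, but the gene had too few counts to be tested. When the filter on low counts was dropped it had a log2 fold change of −1.05 (SE 0.50; edgeR adjusted p = 0.065).

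The 3 TGF-beta genes did not move together. TGFB1 (chromosome 19, 41301587 to 41353911, minus strand) had 111, 109 and 110.3 CPM with the POLK sgRNA, against 128, 132 and 125 CPM with the control sgRNA. The groups did not overlap, although the difference was small: TGFB1 fell to 85.6% of its control level (log2 fold change −0.22, SE 0.03; edgeR adjusted p = 4.1e-09). TGFB2 (chromosome 1, 218346235 to 218444619, plus strand) is a rarer transcript here, with 68, 44 and 47 counts in the POLK sgRNA libraries, against 32, 32 and 34 counts in the control sgRNA libraries. Its level was 1.03 ± 0.139 CPM with the POLK sgRNA and 0.680 ± 0.0840 CPM with the control sgRNA (SD, n = 3 each), and POLK sgRNA library 1 was the highest. The log2 fold change was 0.62 (SE 0.20; edgeR adjusted p = 0.0070). The call for TGFB2 was lost without POLK sgRNA library 1 (edgeR adjusted p = 0.057) or without control sgRNA library 2 (edgeR adjusted p = 0.054).

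TGFB3 (chromosome 14, 75958099 to 75982991, minus strand) had 3.73, 4.34 and 3.80 CPM with the POLK sgRNA, against 2.92, 3.17 and 3.27 CPM with the control sgRNA. All POLK sgRNA libraries were above all control sgRNA libraries, with a log2 fold change of 0.33 (SE 0.10; edgeR adjusted p = 0.0045). None of the 3 TGF-beta genes passed the minimum-change test. Per kb of exon, TGFB1 made up 97.1 ± 0.18% of the summed TGF-beta transcripts with the POLK sgRNA and 98.1 ± 0.12% with the control sgRNA (SD, n = 3 each). TGFB1 was thus by far the main isoform at the RNA level in every library. The share of TGFB3 was 2.30 ± 0.213% with the POLK sgRNA and 1.57 ± 0.104% with the control sgRNA.

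FST encodes follistatin, which binds activin outside the cell and keeps it from its receptors. The gene (chromosome 5, 53480409 to 53487134, plus strand) had 139, 130.4 and 139 CPM with the POLK sgRNA, against 96.2, 95.7 and 93.2 CPM with the control sgRNA. The groups were well separated, with a log2 fold change of 0.52 (SE 0.03; edgeR adjusted p = 1.5e-17). FST rose where INHBA fell, so their ratio within a library moved more than either gene. Per kb of exon the ratio of FST to INHBA was 4.66, 4.27 and 4.49 in the POLK sgRNA libraries, against 1.52, 1.51 and 1.36 in the control sgRNA libraries. The mean ratio was 3.06 times as high with the POLK sgRNA. An exact permutation test (both sides) on this ratio gave p = 0.10, the smallest value that 3 libraries against 3 can give.

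SMAD7, the inhibitory SMAD, blocks the type I receptor and is itself switched on by TGF-beta. The gene (chromosome 18, 48919853 to 48952052, minus strand) had 8.31, 6.84 and 6.72 CPM with the POLK sgRNA, against 11.7, 11.6 and 10.9 CPM with the control sgRNA. POLK sgRNA library 1 was the highest of its group and still below every control sgRNA library. SMAD7 fell by 0.64 on the log2 scale (SE 0.07; edgeR adjusted p = 3.6e-09), to 63.9% of its control level.

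The 2 matrix genes moved in opposite directions. THBS1 encodes thrombospondin 1, a secreted glycoprotein that can open latent TGF-beta and is also induced by it. The gene (chromosome 15, 39581079 to 39599466, plus strand) had 277, 246 and 230.5 CPM with the POLK sgRNA, against 417, 414 and 408 CPM with the control sgRNA. The POLK sgRNA libraries were more spread out, with a coefficient of variation of 9.41% against 1.11% in the control sgRNA libraries, yet all lay below the control range. THBS1 fell by 0.72 on the log2 scale (SE 0.07; edgeR adjusted p = 9.1e-04). The log2 fold change was −0.79 without POLK sgRNA library 1.

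TGFBI encodes a secreted matrix protein named for its induction by TGF-beta, and lies on chromosome 5 (136028895 to 136063818, plus strand). It had 118, 117 and 120.4 CPM with the POLK sgRNA, against 68.0, 72.9 and 74.0 CPM with the control sgRNA. The groups were far apart relative to their spread, with a log2 fold change of 0.72 (SE 0.03; edgeR adjusted p = 7.8e-21). TGFBI was thus 1.65-fold higher while SMAD7 and THBS1, which TGF-beta also induces, were lower.

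Because long transcripts collect more reads, levels were compared between genes only per kb of exon. With the POLK sgRNA the order ran FST (45.9 ± 1.69 CPM per kb), TGFB1 (33.9 ± 0.323), THBS1 (27.4 ± 2.58), TGFBI (15.2 ± 0.214), INHBA (10.3 ± 0.200), SMAD7, TGFB3, TGFB2 and INHBB. With the control sgRNA the order of these levels ran THBS1 (45.1 ± 0.501 CPM per kb), TGFB1 (39.7 ± 1.08), FST (32.0 ± 0.543), INHBA (21.9 ± 1.04), TGFBI (9.17 ± 0.405), SMAD7, TGFB3, TGFB2 and INHBB. The order was the same in all 3 libraries of a group, and neighbours in it had ranges that did not overlap. FST and THBS1 traded places at the top of the order between the groups, and TGFBI and INHBA traded places in the middle.

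**Figure D2:**
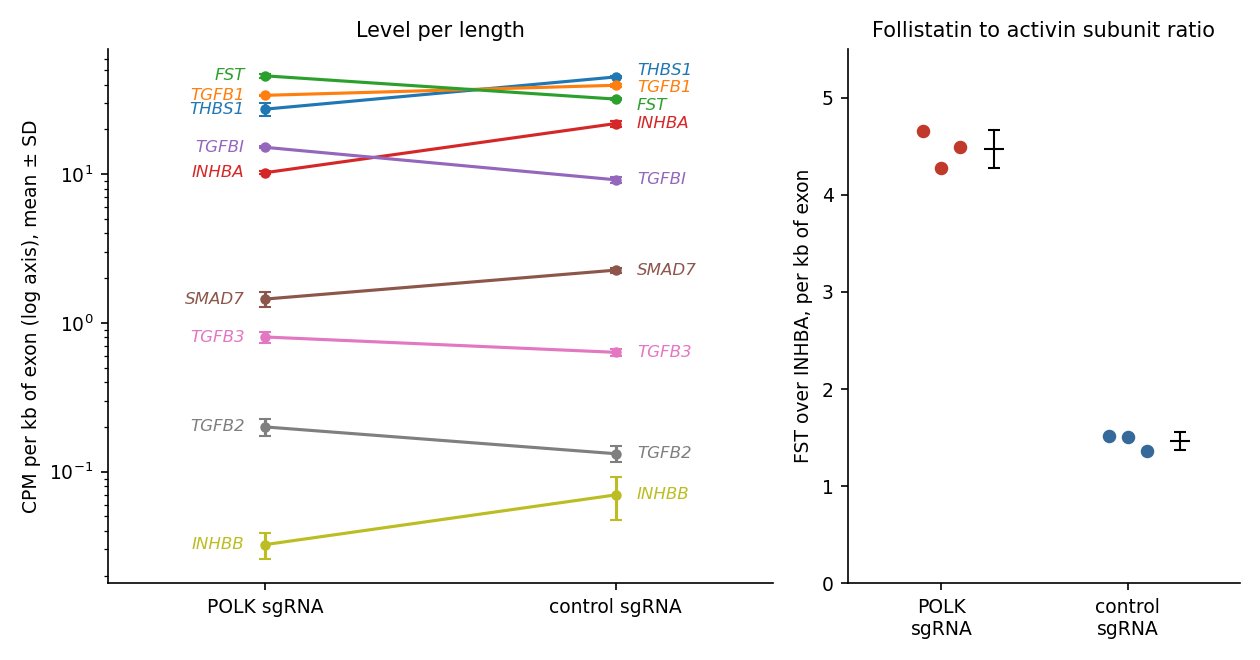
Left, mean level of each gene in CPM per kb of exon (log axis, error bars SD, n = 3 libraries each) with the POLK sgRNA and the control sgRNA; right, the ratio of FST to INHBA per kb of exon in each library, with mean and SD in black. The lines of FST and THBS1 cross, as do those of TGFBI and INHBA, and the ratio is 4.27 to 4.66 with the POLK sgRNA and 1.36 to 1.52 with the control sgRNA.

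Whole stretches of chromosomes are shifted between these 2 groups, so each gene was set beside its 40 nearest genes that averaged 1 CPM or more, 20 on each side. For the 8 tested genes the neighbours' median log2 fold change ran from −0.08 (TGFBI) to 0.05 (TGFB1), close to 0.01 for all genes tested. Each of the 8 lay outside the interquartile range of its neighbours. INHBB was different: its neighbours had a median of −0.33, and 31 of the 40 were lower and 4 higher. Some exons are shared with other genes, and the library kit does not mark strand. On the opposite strand, TGFB1 shares 6.64% of its exon bases with HNRNPUL1, and TGFB3 shares 3.32% with the noncoding TGFB3-AS1. THBS1 shares 4.89% with FSIP1 and 4.49% with the antisense gene AC037198.2, also on the opposite strand. TGFB2 shares 26.6% with the noncoding TGFB2-OT1 on its own strand. The levels of these genes are therefore less certain.

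**Figure D3:**
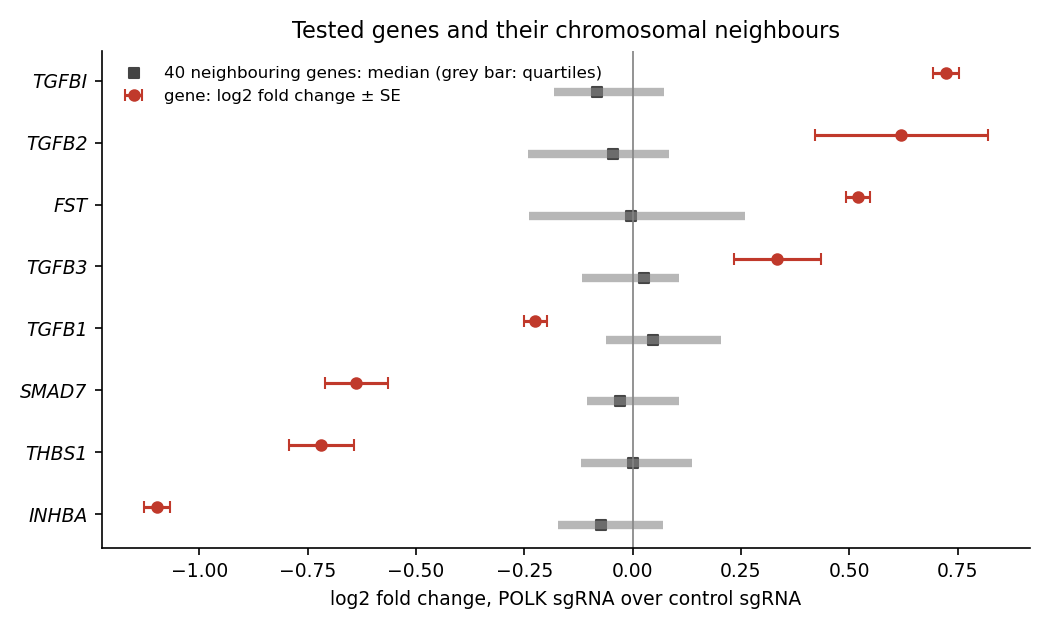
Log2 fold change of each tested gene (red points, error bars SE; POLK sgRNA over control sgRNA, horizontal axis) and the median of its 40 chromosomal neighbours (dark squares, grey bars from the lower to the upper quartile). The neighbours' medians lie between −0.08 and 0.05, and every red point lies outside its grey bar.

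Of 110 other pathway genes tested, 25 passed as higher and 59 as lower in the same test, against 32.8% and 31.6% of all genes. The 110 genes came from 9 lists written from textbook knowledge, with earlier results of these data known. The counts of each list below stand beside the same shares, and beside 11.9% higher and 8.79% lower in the minimum-change test. Of the 10 other ligand genes listed, 7 had a row in the table and 4 could be tested, of which 3 were higher. GDF11, a relative of activin, had 149 ± 3.23 CPM with the POLK sgRNA and 85.3 ± 1.33 CPM with the control sgRNA (SD, n = 3 each). Its 40 neighbours on chromosome 12 were also raised, with a median log2 fold change of 0.57 beside its own 0.81. GDF15, a distant relative that signals through another receptor, rose by 0.66 on the log2 scale, with neighbours at 0.04. INHBE, an activin subunit gene best known from liver, was higher at a low level (0.877 ± 0.0203 CPM with the POLK sgRNA and 0.254 ± 0.0400 CPM with the control sgRNA). INHA, whose product turns activin chains into inhibins, did not pass (log2 fold change −0.11, SE 0.25).

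Of 11 receptor and co-receptor genes tested, 4 were higher and 3 lower, against 32.8% and 31.6% of all genes tested. The minimum-change test was passed by 2 and 1, against 11.9% and 8.79% of all genes. TGFBR1, the type I receptor of TGF-beta, fell to 30.5 ± 1.59 CPM with the POLK sgRNA, against 36.3 ± 0.385 CPM with the control sgRNA, and TGFBR2, the type II receptor, did not pass (33.6 ± 0.845 and 33.5 ± 0.566 CPM). The activin receptor genes ACVR1B, ACVR2A and ACVR1 moved in the same direction as their chromosomal neighbours. ACVR1B, on the raised stretch of chromosome 12, rose by 0.34 beside a neighbour median of 0.56. ACVR2A and ACVR1 on chromosome 2 had log2 fold changes of −0.44 and −0.35, beside neighbour medians of −0.37 and −0.34. ACVR1C, near ACVR1 on chromosome 2, was higher at a low level, at 1.42 ± 0.167 CPM with the POLK sgRNA and 0.874 ± 0.243 CPM with the control sgRNA. ACVR2B did not pass (log2 fold change 0.07, SE 0.04).

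Among SMADs and their partners, 1 of 7 tested genes was higher and 5 lower, and 1 in each direction passed the minimum-change test. SMAD3 fell to 92.8 ± 1.98 CPM with the POLK sgRNA, against 122 ± 4.21 CPM with the control sgRNA (log2 fold change −0.40, SE 0.03; edgeR adjusted p = 2.6e-14). SMAD2 changed less, by −0.10, and SMAD4 did not pass (0.07, SE 0.04). ZFYVE9, whose product SARA presents SMADs to the receptor, rose by 0.77 on the log2 scale, and the coactivator gene CREBBP and the SMAD4 regulator gene TRIM33 had −0.29 and −0.12.

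Intracellular inhibitors were lower in 8 of 12 tested genes and higher in none, and 3 passed the minimum-change test as lower. SMURF2, TGIF1, NEDD4L and STRAP were lower by small steps, with log2 fold changes of −0.11, −0.12, −0.10 and −0.07. PMEPA1, a TGF-beta target whose product holds SMAD2 and SMAD3 away from the receptor, fell to 65.0 ± 0.857 CPM with the POLK sgRNA, against 132 ± 4.68 CPM with the control sgRNA (log2 fold change −1.02, SE 0.03). Its neighbours on chromosome 20 had a median of 0.18. LDLRAD4, a relative of PMEPA1 with a like role, fell to 0.137 ± 0.00777 CPM with the POLK sgRNA, against 3.44 ± 0.178 CPM with the control sgRNA (SD, n = 3 each). The repressor genes SKIL and SKI had log2 fold changes of −0.57 and −0.36.

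Genes for latency and activation of TGF-beta were higher in 2 and lower in 10 of 14 tested, but most of the decreases were small, and 2 passed the minimum-change test as higher and 1 as lower. PCSK6, a convertase gene that belongs to the family that cuts the precursors of these ligands, fell to 0.338 ± 0.0730 CPM with the POLK sgRNA, against 4.90 ± 0.238 CPM with the control sgRNA. The membrane protease gene MMP14 and the latent TGF-beta binding protein gene LTBP4 rose by 0.56 and 0.38 on the log2 scale, and the integrin gene ITGB5 fell by 0.26. Extracellular inhibitors were higher in 2 and lower in 5 of 9, and 2 and 1 passed the minimum-change test. BGN, which encodes the proteoglycan biglycan, fell to 15.1 ± 1.35 CPM with the POLK sgRNA, against 44.7 ± 0.740 CPM with the control sgRNA. LTBP1, kept in both lists, and the pseudoreceptor gene BAMBI had log2 fold changes of −0.44 and −0.18, and IGSF1 had 1.12 at a low level. FSTL3, the relative of follistatin, did not pass (34.3 ± 0.939 and 33.0 ± 1.26 CPM; edgeR adjusted p = 0.22), and DCN, also a fibroblast marker, was higher at 1.11 ± 0.160 CPM, against 0.0902 ± 0.0271 CPM.

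Genes that TGF-beta is known to induce were lower in 23 and higher in 5 of 34 tested, with a median log2 fold change of −0.42 beside 0.01 for all genes. The minimum-change test was passed by 17 as lower and 1 as higher. The higher one was ADAM19, at 73.7 ± 5.48 CPM with the POLK sgRNA and 48.5 ± 1.22 CPM with the control sgRNA. DACT1, SPHK1, VEGFA and TGFB1I1 were higher with log2 fold changes of 0.39, 0.22, 0.20 and 0.10. TPM1, a tropomyosin gene, fell to 47.1 ± 0.437 CPM with the POLK sgRNA, against 118 ± 1.85 CPM with the control sgRNA. IGFBP3, which encodes a binding protein of insulin-like growth factors, fell to 22.7 ± 0.531 CPM, against 54.2 ± 0.409 CPM with the control sgRNA. The matrix protease gene ADAMTS1 had 4.64 ± 0.297 CPM with the POLK sgRNA and 17.6 ± 1.56 CPM with the control sgRNA. FN1, the fibronectin gene, had 39.9 ± 2.20 CPM with the POLK sgRNA and 176 ± 11.6 CPM with the control sgRNA.

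LOXL2, a collagen-crosslinking oxidase gene, had a log2 fold change of −0.88, and the basement membrane collagen genes COL4A1 and COL4A2 had −0.62 and −0.48. CDKN1A, a cell cycle inhibitor gene that p53 also induces, had −0.44. The list shares PMEPA1, SKIL, TGIF1 and SMURF1 with the inhibitors and LTBP2 with the latency genes. JUNB, TAGLN and COL1A1 did not pass, with log2 fold changes of 0.04, 0.06 and 0.19.

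The BMP branch, which uses related receptors but other SMADs, was higher in 5 and lower in 9 of 20 tested genes, with 2 and 5 past the minimum-change test. Among its target genes of the ID family, ID3 and ID2 were lower, ID1 was higher and ID4 did not pass. ID3 had 49.2 ± 1.07 CPM with the POLK sgRNA and 89.6 ± 0.994 CPM with the control sgRNA. ID2, at a low level, had a log2 fold change of −0.73, and ID4 had 0.16 (SE 0.11). ID1 had 74.8 ± 1.36 CPM with the POLK sgRNA and 46.2 ± 1.67 CPM with the control sgRNA. ID1 and the ligand gene BMP2 lie on raised stretches of chromosome 20, with log2 fold changes of 0.70 and 0.62 beside neighbour medians of 0.62 and 0.59. MSX1, a homeobox target gene, had −0.52. The BMP list's median was −0.09, also with GDF6, which had no count with the POLK sgRNA, set at a floor of 3 counts over that group. In the thrombospondin family list, 3 of 5 tested genes were higher and 0 lower, and 2 and 0 passed the minimum-change test. THBS2 rose by 1.29 on the log2 scale to 11.6 ± 0.856 CPM with the POLK sgRNA, against 4.72 ± 0.193 CPM with the control sgRNA, while THBS1 fell. THBS3 had a log2 fold change of 0.10, with groups that overlapped in CPM. CD47, a receptor gene for thrombospondin 1, did not pass (0.06, SE 0.03).

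**Figure D4:**
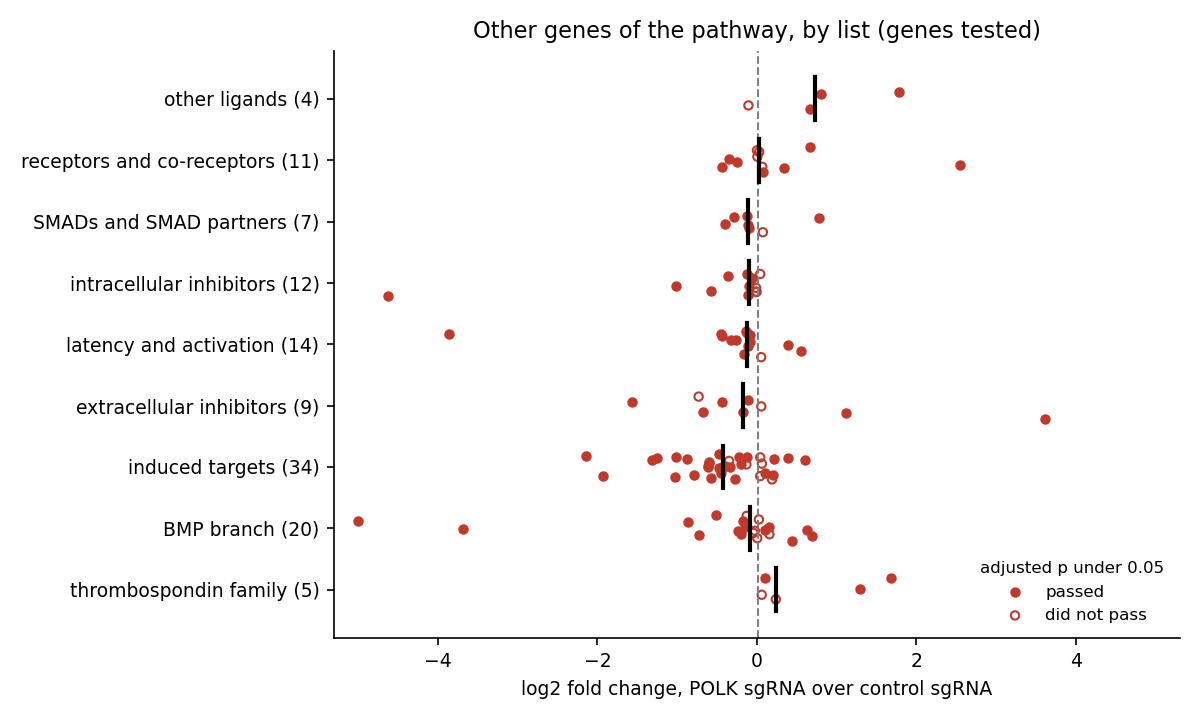
Log2 fold change (POLK sgRNA over control sgRNA, horizontal axis) of every tested gene in the 9 lists of other pathway genes, with list medians as black bars and the median of all genes as a dashed line; filled points passed the test and GDF6, with no count in the POLK sgRNA libraries, is drawn at the left end of its row. The 34 induced targets lie mostly left of the line, with a median of −0.42, while the 11 receptor genes lie on both sides.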

How the data were processed

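RNA was sequenced from 6 libraries of A375 cells. The authors deposited raw counts per gene, not normalized, in 1 table with Ensembl identifiers and symbols. The build GRCh38 and the tools STAR, Trimmomatic, FastQC and DESeq2 are named per the submitters' processing notes, while for the counting tool, annotation and versions the sources used here give nothing. Columns were matched to samples by name, and samples were grouped by the sgRNA in the labels.

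Genes with too few counts were removed with filterByExpr (minimum count 10, minimum total 15), which kept 13930 of 16934. Libraries were scaled by TMM and compared with the quasi-likelihood F test of edgeR 4.0.16 in R 4.3.3 with no covariates. Tests covered both directions, p-values were adjusted by Benjamini-Hochberg over every tested gene, and 0.05 was the threshold. Standard errors are the size of the log2 fold change divided by the root of F. CPM uses TMM-scaled library sizes, and CPM per kb divides it by the union of annotated exons in GENCODE 29. The code was tested on simulated data. Members and lists were chosen with earlier results of these data known.

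The members, POLK and a fixed number of genes from each list are named: the 4 with the smallest p among those that passed at a mean of at least 1 CPM, or 8 for induced targets, plus TGFBR2 and FSTL3 whatever their p. Another gene that this rule names is not reported here. FN1, INHBE, INHA, DCN, GDF6, LTBP2, SMURF1, SMAD2, SMAD4, CD47, JUNB, TAGLN, COL1A1, SMURF2, TGIF1, NEDD4L, STRAP, ACVR1C, ACVR2B, ADAM19, DACT1, SPHK1, VEGFA, TGFB1I1 and the genes named from the cell type marker lists were named after their values were seen. The same holds for ID2 and ID4. Alternatives were other scalings and filters, DESeq2 1.42.0, limma-voom (limma 3.58.1), a block for replicate number, edgeR's glmTreat against a log2 change of 0.32, and each library left out in turn.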

Additional observations from a re-analysis of the deposited data

How the results depend on the processing

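INHBA, FST, SMAD7, TGFBI and THBS1 kept their direction and their call in all 14 alternatives. Against a minimum log2 change of 0.32 (glmTreat), the calls were lost for TGFB1 (log2 fold change −0.22), TGFB2 (0.62), TGFB3 (0.33) and POLK (−0.36), and by construction fewer genes passed: 2 of the 9 genes as higher, 15 other pathway genes as higher and 27 as lower, and 1653 of all genes as higher and 1224 as lower. With each library left out in turn, the log2 fold change of TGFB2 ran from 0.49 to 0.68, and its call was lost in 2 of these 6 fits. Among the lists, glmTreat gave 1 SMAD or partner as lower and not 5, 3 intracellular inhibitors as lower and not 8, 1 latency gene as lower and not 10 and 1 extracellular inhibitor as lower and not 5. The receptors called higher numbered 2 and not 4, and the extracellular inhibitors called higher 1 and not 2, when genes averaging under 1 CPM were dropped. The SMADs and partners called higher numbered 2 and not 1 without POLK sgRNA library 2, and the induced targets called higher numbered 3 and not 5 with DESeq2. The labels do not say whether the replicate numbers pair the libraries. Deviations from the group means of same-numbered libraries had correlations of −0.03, −0.03 and −0.04, which cannot settle it with so few libraries. With the replicate number as a block, 4483 genes were higher and 4290 lower, and every tested gene of the 9 kept its call. The SE of THBS1 was then 0.04 and not 0.07 (edgeR adjusted p = 3.8e-07). Depth limits INHBB and TGFB2, with at most 13 and 68 counts in a library.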
